A study of Mus musculus with 16 samples.

Results

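Brown and white adipose tissue of control mice were compared on the 4 arrays labelled brown control and the 4 labelled white control, which are 8 of the 16 arrays of the series. The series' design text calls these mice wild-type, the labels give their sex as male, and neither gives their age, strain, housing temperature or the depots dissected. The other 8 arrays came from mice whose glucocorticoid receptor, encoded by Nr3c1, was deleted in adipose tissue, 4 from each tissue. The labels do not name the driver of that deletion, and the control mice are not described as carrying any allele or agent.

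White adipocytes store triglyceride in 1 large droplet and release fatty acids and hormones such as leptin. Brown adipocytes hold many small droplets and many mitochondria, in which uncoupling protein 1, the product of Ucp1, lets protons back into the matrix so that oxidation yields heat. The main brown depot of the mouse lies between the shoulder blades, against skeletal muscle, and brown fat precursors share an embryonic source with muscle.

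A level is given as log2 of the background-subtracted intensity minus the 75th percentile of its array, so that 0 is the brightness of the 75th percentile probe. A difference is brown minus white on this scale. Between 69.4% and 74.0% of spots were well above background on the control arrays, and no spot was saturated. Arrays of a group that differed by less than the scanner's stated error were averaged and counted as 1 sample, because they may be 1 RNA measured again, although the design text calls them biological replicates. White control arrays 1 and 4 formed one sample and arrays 2 and 3 the other. Brown control arrays 2 and 3 formed 1 sample, beside array 1 and array 4. The comparison is therefore 3 brown against 2 white samples. Its p-values measure only spread between samples, and the fit takes that spread from all 4 groups, the 2 samples of each knockout tissue included. A fit on the control samples alone called 2521 genes in place of 819. Nr3c1, the gene targeted in the knockout mice, did not pass between the tissues of controls (0.17 ± 0.21 SE, adjusted p = 0.635). On every knockout array it lay below all 8 control arrays, with levels of 1.23 to 1.76 against 2.01 to 2.63.

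The arrays labelled brown control 2 and 3 went against their label in the defining markers of brown adipocytes. Ucp1 had a level of 6.54 on brown array 1 and 8.07 on array 4, but of -0.83 on both array 2 and array 3. The white arrays lay between -1.91 and -1.65. Arrays 2 and 3 were thus near the white arrays, and the 4 brown knockout arrays were high, between 5.63 and 5.85. Cidea, which encodes a lipid droplet protein of brown adipocytes, was at 7.51 and 8.65 on brown arrays 1 and 4 and at 2.80 and 2.71 on arrays 2 and 3. The white arrays, at 4.40 to 4.96, lay between. Elovl3, a fatty acid elongase gene of activated brown fat, had levels of 1.46 and 2.47 on arrays 1 and 4. On arrays 2 and 3 it was at -5.07 and -4.41, below the white arrays (-4.11 to -3.20). Zic1, a transcription factor gene of the classical brown depot, was lower on arrays 2 and 3 (-4.49 and -4.63) than on arrays 1 and 4 (-1.32 and -0.16), yet above the white arrays, none of which was well above background.

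Adipoq, which encodes the adipocyte hormone adiponectin, was high on all brown arrays, at 7.12 and 7.29 on arrays 2 and 3 and at 7.53 and 7.55 on arrays 1 and 4. Skeletal muscle genes were not low on arrays 2 and 3, where the median of the muscle lists lay 7.28 and 7.12 above the white mean, against 6.86 and 6.37 on arrays 1 and 4. Muscle fibre type differed: Myh7, the slow myosin heavy chain gene, was at 5.72 and 5.66 on arrays 2 and 3 and at 8.43 and 8.06 on arrays 1 and 4. Calls that did not hold without this sample are named as such below. What the sample held other than its label was not tested.

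**Figure D1:**
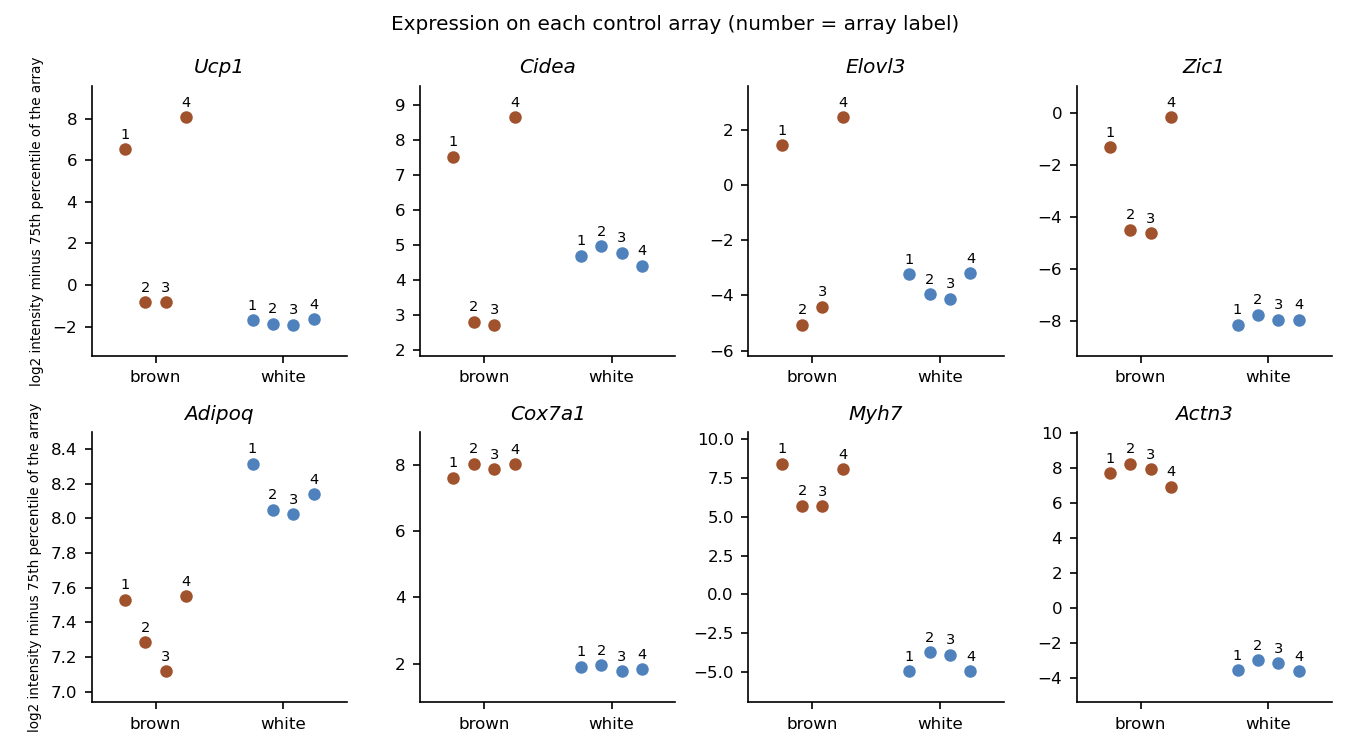
Level of 8 genes (log2 intensity minus the 75th percentile of the array) on each of the 4 brown and 4 white control arrays, 1 point per array, numbered as labelled. For Ucp1, Cidea and Elovl3, brown arrays 2 and 3 sit away from brown arrays 1 and 4 and near or below the white arrays; for Cox7a1 and Actn3 all 4 brown arrays sit above all 4 white arrays.

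Across 15070 genes tested, limma called 819 between the tissues at an adjusted p below 0.05 (5.43%), 634 higher in brown (4.21%) and 185 lower (1.23%). The median difference over all genes was -0.09, and 3504 genes had an unadjusted p below 0.05. Without the sample on brown arrays 2 and 3, 324 genes were called (2.15%), 290 higher and 34 lower. Of these, 318 were also called with it, and all 819 kept their direction. Among the 13864 genes well above background on all 8 control arrays, 582 were called (4.2%), and of 6112 probes with no gene name 244 (3.99%). With so few samples the calls depend on each one: 342 genes were called without brown array 1, 501 without brown array 4, 189 without white arrays 1 and 4, and 178 without white arrays 2 and 3. Of 122 called genes chosen by the naming rule or for the check of labels, 43 stayed called in all 5 of these fits and 37 in none. No slide held control arrays of both tissues, so slide and tissue cannot be told apart within the controls. With slide as a fixed term, which the knockout arrays make possible, 756 genes were called, 573 of them among the 819. That fit counted the 16 arrays as separate samples, which without the slide term called 6082 genes. It therefore differs from the main fit in more than slide. In bulk tissue, fewer cells of a type and less RNA per cell cannot be told apart.

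Skeletal muscle genes were the largest group that rose. Of the 157 tested members of the muscle lists, 117 were called, all higher in brown, with a median difference of 6.76. Without brown arrays 2 and 3 the count was 103 and the median 6.63, and between 91 and 105 were called when any 1 of the 5 samples was left out. The remaining 9 of the 166 named members could not be tested. Among the 116 members well above background on all 8 control arrays, 78 were called, with a median of 5.96. Of all genes, 4.21% were called higher in brown. Actn3, the actin-binding protein gene of fast fibres, had levels of 6.93 to 8.25 on the brown arrays and of -3.59 to -2.95 on the white arrays. Its difference was 10.87 ± 0.37 (SE, adjusted p = 0.000114). The arrays did not overlap, which by itself was true of 49.3% of all genes.

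Fibre types of every kind were represented. Myh2, an intermediate fast myosin gene, differed by 11.22 ± 0.54 and Myh4, that of the fastest fibres, by 11.47 ± 1.32. Myh7, of slow fibres, differed by 11.79 ± 1.21, or 12.64 without brown arrays 2 and 3. The slow troponin gene Tnnt1 had levels of 7.01 and 6.17 on brown arrays 1 and 4 and of 3.49 and 3.44 on arrays 2 and 3. Tnni1 and Tnnc1, the other slow troponin genes, showed the same split, with 4.71 and 4.22 against 1.07 and 1.06 for Tnni1. The median of the sarcomere list was nevertheless highest on arrays 2 and 3, 8.26 above the white mean on each, against 7.82 and 7.41 on arrays 1 and 4.

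Other parts of the muscle cell rose with the sarcomere. Casq1, the calcium store protein gene of the sarcoplasmic reticulum, was at 4.06 to 4.80 on brown arrays, and was not well above background on any white array, so it was at least 1397-fold higher in brown. Mb, which encodes the oxygen carrier myoglobin, differed by 10.91 ± 0.71. Among regulators, the myogenic transcription factor genes Myod1 (4.52 ± 0.45), Myf6 (8.13 ± 0.76) and Myog (at least 52.9-fold) were called, as was Mstn, the muscle growth inhibitor gene, at 8.24 ± 0.80. Myod1, Myf6 and Mstn were not well above background on all 8 control arrays, so their differences are fitted values. Actn3, Myh1, Myh2, Myh4, Myh7, Tcap, Mybpc2, Casq1, Atp2a1, Pvalb, Mb, Myod1, Myf6, Myog, Mstn and Acta1 were called in all 5 fits that left out 1 sample. Pax3 and Myf5, early regulators of muscle precursors, were on the array and not well above background on any control array.

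The promoters of 4 genes are shown because they set muscle genes beside a gene that muscle and brown fat share and a gene of brown fat. Each is the 250 bases before the RefSeq start site in GRCm38.p6, 5′ to 3′ on the gene's strand, with matches to CAGCTG, the E-box form that myogenic factors favour, in capitals. Acta1, skeletal muscle actin, lies on chr8:123894776-123895025 (minus strand) and Ckm, muscle creatine kinase, on chr7:19410844-19411093 (plus strand). Cox8b, a respiratory chain subunit of muscle and brown fat, lies on chr7:140900447-140900696 (minus strand) and Ucp1 on chr8:83290098-83290347 (plus strand).
Acta1: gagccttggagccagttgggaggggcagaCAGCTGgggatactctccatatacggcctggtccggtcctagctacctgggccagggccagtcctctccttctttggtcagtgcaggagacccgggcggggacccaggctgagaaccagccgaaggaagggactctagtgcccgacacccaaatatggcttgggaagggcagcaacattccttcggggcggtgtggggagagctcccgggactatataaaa
Ckm: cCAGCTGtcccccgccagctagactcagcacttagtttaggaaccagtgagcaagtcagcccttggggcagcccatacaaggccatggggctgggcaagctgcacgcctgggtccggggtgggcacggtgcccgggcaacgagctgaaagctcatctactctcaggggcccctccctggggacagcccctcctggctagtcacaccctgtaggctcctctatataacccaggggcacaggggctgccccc
Cox8b: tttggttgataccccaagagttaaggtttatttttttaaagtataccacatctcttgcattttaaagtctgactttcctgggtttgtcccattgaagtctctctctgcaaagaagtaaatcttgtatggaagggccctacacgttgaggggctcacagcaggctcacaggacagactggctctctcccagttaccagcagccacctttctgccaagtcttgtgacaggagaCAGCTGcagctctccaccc
Ucp1: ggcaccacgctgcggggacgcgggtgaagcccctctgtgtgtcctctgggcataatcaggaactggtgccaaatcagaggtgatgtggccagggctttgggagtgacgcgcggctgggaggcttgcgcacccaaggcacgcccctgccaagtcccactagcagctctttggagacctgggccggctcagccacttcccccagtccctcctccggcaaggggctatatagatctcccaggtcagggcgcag
The Acta1, Ckm and Cox8b windows each hold 1 match, and the Ucp1 window holds no match. A promoter window was found for 11986 of the 15070 genes tested, 15184 windows in all, since some genes have several start sites. CAGCTG, which reads the same on both strands, was in 12.6% of these windows. It was in 33.3% of the 108 windows of called muscle genes, in 15.9% of the 517 windows of genes called higher outside the muscle lists and in 12.6% of the 174 windows of genes called lower. It was in 17.1% of the 41 windows of thermogenic genes and in 9.59% of those of respiratory chain and ATP synthase genes. The 4 windows printed are examples and do not stand for their groups. CTANNNNTAG, the core bound by MEF2 factors, searched on both strands, was in 2.95% of all windows and 10.2% of those of called muscle genes. AAGGTCA, the half-site of estrogen-related receptors, was in 3.19% of all windows, 0.926% of those of called muscle genes and 8.22% of the 73 windows of respiratory chain and ATP synthase genes. These are counts of letters and do not show binding.

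Thermogenic genes were mostly higher in brown, and the sample on arrays 2 and 3 set which of them passed. Of 35 named members, 33 were tested, 30 had higher means in brown and 6 were called higher, with a median difference of 1.47. Among the members well above background on all 8 control arrays, also 30 in number, 4 were called and the median was 0.97. Over all genes, 44.3% had higher means and 4.21% were called higher. Without that sample 7 were called and the median was 1.87; on arrays 2 and 3 alone, 21 of 33 lay above the white mean. Ucp1 differed by 6.37 ± 2.34 (SE, adjusted p = 0.164) with all samples and by 9.09 ± 0.66 (adjusted p = 0.00311) without it. Cidea went from 1.60 ± 1.53 (adjusted p = 0.551) to 3.38 ± 0.41 (adjusted p = 0.0150), and Elovl3 from 3.35 ± 1.91 (adjusted p = 0.337) to 5.59 ± 0.47 (adjusted p = 0.00431). Slc27a2, a very-long-chain fatty acid activating enzyme gene, was not well above background on any white array, and its adjusted p went from 0.136 to 0.0190. Among the 5 fits that left out 1 sample, these 4 genes passed only in the one without arrays 2 and 3. That sample was singled out by its low Ucp1, Cidea and Elovl3, so their smaller errors and passes without it follow from that choice. They are no separate support for a tissue difference, and the count of 7 includes them. Ucp1 and Slc27a2 also passed where the 16 arrays were counted as separate samples.

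Other members of the list were high on all 4 brown arrays. Cox7a1, a cytochrome oxidase subunit gene of muscle, heart and brown fat, was at 7.60 to 8.03 on the brown arrays and at 1.78 to 1.95 on the white arrays. It differed by 5.98 ± 0.47 (adjusted p = 0.000747) and was called in all 5 fits that left out 1 sample. Its relative Cox8b differed by 3.50 ± 0.46 and was called in 3 of them. Both genes are also expressed in muscle, whose transcripts were high on the same arrays, and the share of each tissue in these levels was not tested.

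Other called members regulate mitochondrial genes. Esrra, an estrogen-related receptor gene, had levels of 3.84 to 4.27 in brown and 2.55 to 2.68 in white and was called (1.47 ± 0.25). Ppargc1b, a coactivator of such receptors, was called (1.60 to 3.01 in brown, -0.07 to 0.61 in white, adjusted p = 0.0357) and Ppargc1a was not, at 2.65 ± 0.72 (adjusted p = 0.0879). Without arrays 2 and 3 neither Esrra (adjusted p = 0.0858) nor Ppargc1b (0.0583) was called, and each was called in 1 of the 5 fits. Dio2, which activates thyroid hormone in brown fat, was at 1.73 ± 0.72 (adjusted p = 0.207). Prdm16, a determinant of brown adipocyte identity, had overlapping levels, 0.10 to 1.55 in brown and 0.52 to 0.94 in white (adjusted p = 0.847). Pparg, the master regulator of both kinds of adipocyte, was at -0.27 ± 0.63 (adjusted p = 0.808).

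Zic1 was called with and without arrays 2 and 3, at 5.94 ± 1.19 and 7.22 ± 0.62 (adjusted p = 0.0357 and 0.00443). It was not well above background on any white array, which bounds it at 16.7-fold or more above white. Left out in turn, brown array 1, brown array 4 and either white sample each ended the call.

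Subunits of the respiratory chain and ATP synthase were higher in brown almost without exception. Of 81 tested members, 78 had higher means, where 44.3% of all genes did, and on 77 the 4 brown arrays lay above the 4 white arrays, where 22.7% of all genes did. The test called 22, all higher, where 4.21% of all genes were, with a median difference of 1.16. The median was 1.13 without brown arrays 2 and 3, but then only 3 members were called, and between 2 and 4 were called when any 1 sample was left out. The direction of the group was thus steady while most single members lost their call.

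The rise covered each complex. Complex I, which takes electrons from NADH, had 37 of 37 members higher and 6 called, among them Ndufs1 (1.41 ± 0.31) and Ndufa5 (1.54 ± 0.29). Complexes II and III with cytochrome c had 14 of 14 higher and 4 called, with Uqcrc1 at 1.64 ± 0.29 and the cytochrome c gene Cycs at 1.51 ± 0.32. Complex IV, cytochrome oxidase, had 13 of 15 higher and 7 called, with Cox5a at 1.55 ± 0.26 (adjusted p = 0.0853 without arrays 2 and 3). ATP synthase had 14 of 15 higher and 5 called, with Atp5a1 at 1.17 ± 0.24 and Atp5e at 1.49 ± 0.26. None of the complex I, II and III or ATP synthase calls survived leaving out any 1 sample.

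Arrays 2 and 3, which were low in Ucp1, were not low in these subunits. The median of the 81 members above the white mean was 1.24 and 1.21 on brown arrays 2 and 3, against 0.94 on array 1 and 1.38 on array 4. Muscle and brown adipocytes are both rich in mitochondria, and the part of muscle in this rise was not tested. Enzymes of the citric acid cycle followed, with 17 of 19 higher, where 44.3% of all genes were, and 3 called, where 4.21% were. Among the 3 were Suclg1 (1.87 ± 0.40) and Idh3b (2.07 ± 0.41). None of those 3 stayed called without brown arrays 2 and 3, or without any other 1 sample.

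**Figure D2:**
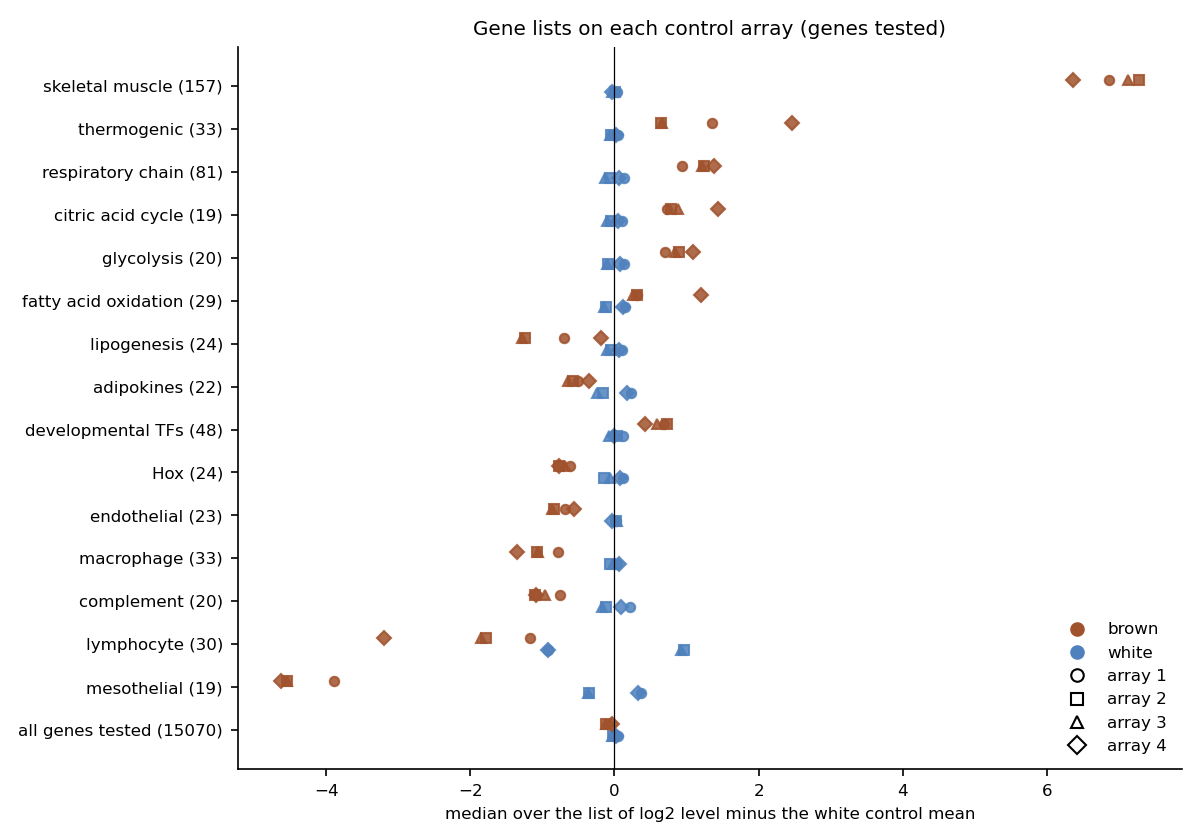
Median over the tested members of each gene list (number in brackets) of the level minus the white control mean, in log2 units, with 1 point per control array, coloured by tissue and shaped by array. The skeletal muscle list lies between 6.37 and 7.28 on the 4 brown arrays, the thermogenic list is lowest on brown arrays 2 and 3 (0.65 on each), and the mesothelial list lies between -4.63 and -3.89 on the brown arrays.

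Pairs of isoforms were chosen so that their members differ in tissue range. In each of 14 pairs with both members tested, one form was taken as restricted mainly to striated muscle or, for some, brown fat or insulin-sensitive tissue. The other was taken as widespread. The restricted form was called higher in 13 of 14 pairs, where 4.21% of all genes were, and 9 of the 13 stayed called in all 5 fits that left out 1 sample. Of the 14 restricted forms, 9 also stand in the muscle lists, so this count is not separate from the muscle result. The widespread form was called higher in no pair and lower in 1. Cox6a2, the muscle form of a cytochrome oxidase subunit, was at 7.49 to 8.20 on brown and -4.07 to -2.82 on white arrays, a difference of 11.26 ± 0.86 (adjusted p = 0.000660). Cox6a1, the widespread form, differed by 0.13 ± 0.36 (adjusted p = 0.846).

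Fabp3, the fatty acid binding protein gene of heart and muscle, differed by 8.69 ± 0.98 and Fabp4, that of adipocytes, by 0.10 ± 0.21. Cpt1b, the muscle and brown fat form of the enzyme that admits fatty acids to mitochondria, was at 4.27 to 4.69 on brown and -2.26 to -2.17 on white arrays. It was called higher (6.72 ± 0.46, adjusted p = 0.000431), in all 5 fits that left out 1 sample. Cpt1a, the liver form, was called lower (-1.07 ± 0.19, adjusted p = 0.0252), though in none of the 5. Each of the pair is 1 gene with its own probe, so these are differences within a gene and not levels set against each other.

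Pfkm, the muscle form of phosphofructokinase, was called (5.55 ± 0.60), with Pfkl, the liver form, at -0.42 ± 0.72. Pgam2 was at 10.12 ± 0.50 with Pgam1 at -0.16 ± 0.55, and Eno3 at 6.58 ± 0.59 with Eno1 at -0.26 ± 0.76. Ckm differed by 11.81 ± 1.04 and Ckb, the brain-type creatine kinase, by -1.14 ± 0.71. Slc25a4, the muscle form of the ATP carrier of the inner mitochondrial membrane, was called at 2.55 ± 0.42, though in none of the 5 fits, and Slc25a5 was at -0.48 ± 0.35. Ldhb, taken as the restricted form of its pair, was the one that did not pass (2.42 ± 0.71, adjusted p = 0.102). It is not confined to the tissues named above, so the label is loose for that pair. The label widespread is loose as well for Fabp4, Cpt1a, Pfkl, Ckb and Atp2a2, which are described here as adipocyte, liver, brain-type or cardiac forms.

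Several widespread forms were lower on arrays 2 and 3 than on the other brown arrays. Eno1 was at 0.33 and 0.31 there, and at 1.31 and 3.14 on arrays 1 and 4. Pfkl was at 1.45 and 1.32 there and at 2.94 and 4.15 on arrays 1 and 4. The white arrays lay at 1.65 to 1.99 for Eno1 and at 3.09 to 3.40 for Pfkl. Atp2a2, the slow and cardiac calcium pump gene, was at 4.04 and 3.80 on brown arrays 1 and 4 and at 1.53 and 1.62 on arrays 2 and 3. Its 3 kept probes disagreed, from -0.22 to 2.74, so it is uncertain.

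**Figure D3:**
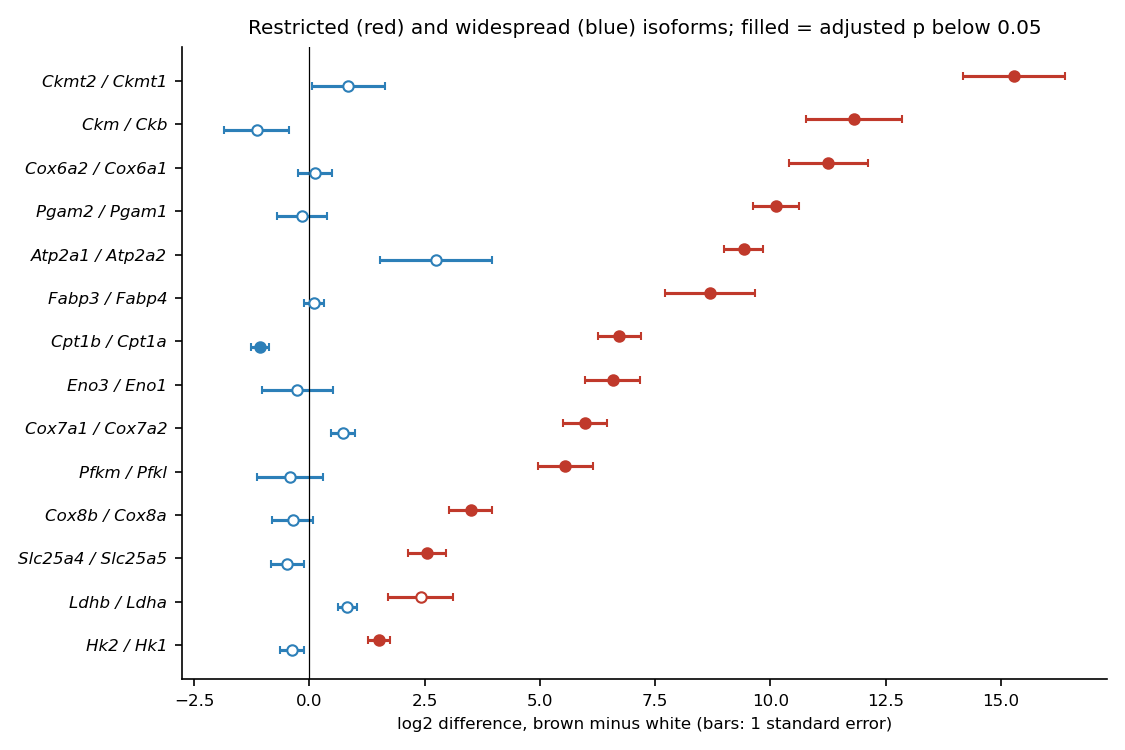
Log2 difference, brown minus white, for 14 pairs of isoforms, with bars of 1 standard error; the restricted form of each pair is red, the widespread form blue, and filled points have an adjusted p below 0.05. Of the red points 13 are filled and lie above 0, while the blue points lie between -1.14 and 2.74. The differences of genes not well above background in white, such as Ckmt2, are fitted values and not bounds.

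Of 20 tested glycolysis genes, 15 had higher means in brown, 7 were called higher and 13 did not pass, with a median of 0.79. Over all genes, 44.3% had higher means and 4.21% were called higher. Pgk1, which yields ATP in the pathway, was at 6.17 to 6.56 on brown and 4.21 to 4.44 on white arrays (1.98 ± 0.23, adjusted p = 0.00429). It was called in 4 of the 5 fits that left out 1 sample. Tpi1 (2.01 ± 0.32), Pkm (adjusted p = 0.0112), Gapdh (1.64 ± 0.30) and the insulin-responsive hexokinase gene Hk2 (1.51 ± 0.24) were also called. Slc16a3, which exports lactate from fast fibres, differed by 4.48 ± 0.69, with 5.29 on both arrays 2 and 3, 4.14 on array 1 and 2.82 on array 4. Without arrays 2 and 3, Tpi1, Gapdh and Hk2 were not called (adjusted p = 0.0584, 0.101 and 0.0686), 3 members of the list were, and 0 to 4 over all 5 fits. Over those fits the median stayed between 0.64 and 0.93.

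Few genes of fat storage and adipose hormones passed the test. Lep, the leptin gene, was at 1.39 to 1.47 on brown and 1.65 to 2.39 on white arrays (-0.61 ± 0.39, adjusted p = 0.388). Adipoq (-0.71 ± 0.42) and Retn, the resistin gene (-1.07 ± 0.35), did not pass either, although all 4 brown arrays lay below the white arrays for each, as for 26.6% of all genes. Of 22 tested adipokine genes 0 were called by limma, and 5 had higher means in brown, where 5.43% and 44.3% of all genes did. Nampt, which makes a precursor of NAD, came nearest (1.02 ± 0.23, adjusted p = 0.0560). At an unadjusted p below 0.05, 4 of the 22 passed, where 3504 of all 15070 genes did.

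In the whole set, 8388 of 15070 genes were lower in mean in brown and 1.23% were called lower. Lipogenic enzymes had a median difference of -0.80, with 21 of 24 members lower in mean and 1 called. That gene was Fads2, a fatty acid desaturase gene (-1.49 ± 0.33, adjusted p = 0.0471), which was called in none of the 5 fits that left out 1 sample. The list's median was -0.44 without arrays 2 and 3, where it lay at -1.25 and -1.29, and on brown array 4 it was -0.19. Cholesterol synthesis genes were lower in mean in 23 of 24 members (median -0.72), and limma called 0. At an unadjusted p below 0.05 there were 11, where 3504 of all 15070 genes were. In triglyceride synthesis the 1 call was Mogat2, a monoacylglycerol acyltransferase gene, at 0.24 to 0.60 on brown and 3.54 to 3.79 on white arrays. Its difference of -3.27 ± 0.25 (adjusted p = 0.000624) was called in all 5 fits.

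Adrenergic signalling, which turns on heat production and lipolysis, had 3 calls among 20 tested members, where 5.43% of all genes were called. Adra1b, an alpha-1 receptor gene, fell from 0.24 to 0.38 on white arrays to between -2.73 and -2.09 on brown arrays (-2.71 ± 0.24, adjusted p = 0.00120). It stayed called in all 5 fits. Adra2b, an alpha-2 receptor gene, was higher in brown (1.80 ± 0.37, adjusted p = 0.0386), and was called in 1 of the 5. It was well above background on only 2 white arrays. Pde4d, a phosphodiesterase gene that degrades cyclic AMP, was called at 2.59 ± 0.48 (adjusted p = 0.0272) but not without brown arrays 2 and 3. Its 4 kept probes ranged from 0.84 to 2.59.

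Transcription factors of body position and development were called in both directions. Of 74 named members 48 were tested, and 12 were called higher and 4 lower in brown, where 4.21% and 1.23% of all genes were. Without brown arrays 2 and 3 the counts were 8 and 4, and when any 1 sample was left out they ranged from 4 to 11 and from 1 to 4. Only 3 of the calls were among the 27 members well above background on all 8 control arrays, whose median was 0.21 against 0.57 for the list. The other calls were of members kept through 1 tissue only. Tbx15, a T-box factor of trunk mesoderm that marks brown and some subcutaneous fat, was at 2.33, 2.56, 2.49 and 1.66 on brown arrays 1 to 4 and at -7.16 to -6.49 on the white arrays. This probe was not well above background on any white array, so by it Tbx15 was at least 303-fold higher in brown (adjusted p = 0.000132). Its 3 kept probes ranged from 3.66 to 9.22 in log2 difference. All 4 brown arrays were high for Tbx15, arrays 2 and 3 included.

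Other T-box genes were steady. Tbx5, a forelimb and heart factor, differed by 3.93 ± 0.36 and Tbx18, of limb and heart mesenchyme, by 2.30 ± 0.20. Both, like Tbx15, were called in all 5 fits that left out 1 sample. Pitx1 (5.81 ± 0.82), a hindlimb factor, and Sim2 (at least 5.91-fold) were called in 3 of them.

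The Iroquois genes Irx1, Irx2 and Irx5, which pattern limb and other tissues, were called higher. Irx2 differed by 6.21 ± 0.94 and Irx5 by at least 18.9-fold. Irx2 was well above background on only 1 white array. Its 3 kept probes ranged from 1.61 to 6.21 in log2 difference, and the 2 of Irx1 from 2.78 to 5.09. Irx1 (5.09 ± 0.86) was at 0.85, 1.84 and 1.62 on brown arrays 1, 2 and 3; its spot on array 4 was marked as an outlier and left out, so the fit used 2 brown samples. Msx2, a limb and skull homeobox gene, was at least 6.69-fold higher. Without arrays 2 and 3, Irx1, Irx2, Irx5 and Msx2 were not called (adjusted p = 0.152, 0.0593, 0.101 and 0.109). Muscle transcripts were high on the same arrays, and whether these factors came from fat or muscle was not tested.

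**Figure D4:**
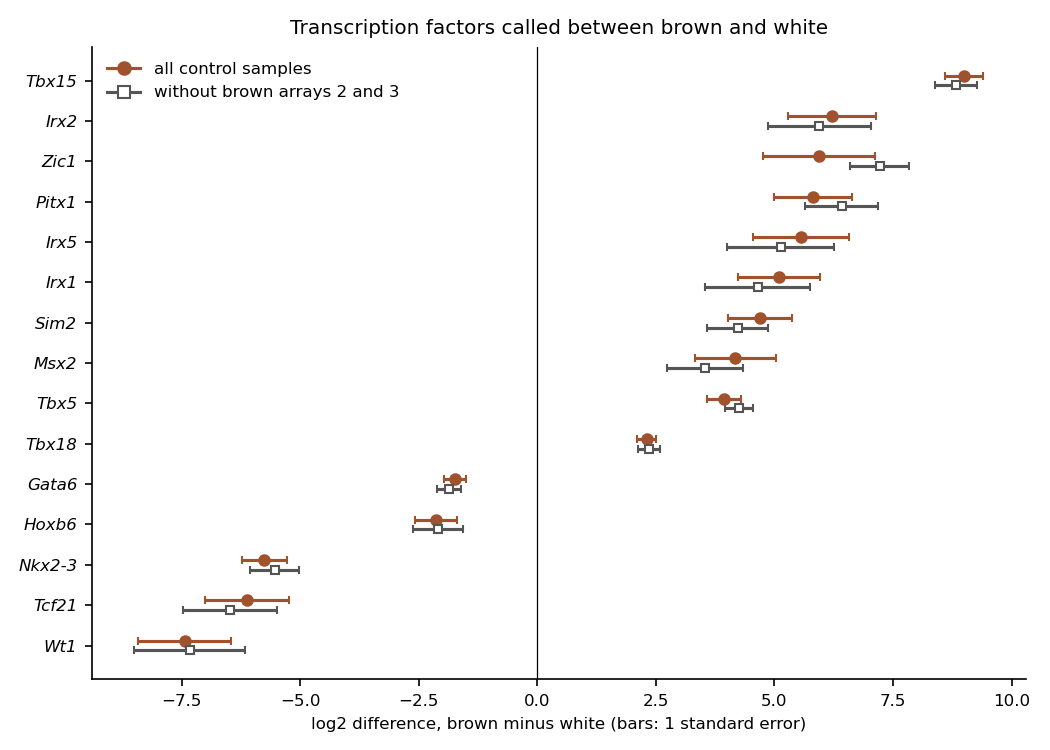
Log2 difference, brown minus white, for the described developmental and Hox transcription factor genes among those called with all samples, with bars of 1 standard error; filled circles use all 5 control samples and open squares leave out the sample on brown arrays 2 and 3. The 10 genes above 0 and the 5 below 0 keep their side in both fits, with Nkx2-3 at -5.76 and -5.54. The points of Tbx15, Zic1, Irx5, Sim2, Msx2 and Wt1, not well above background in 1 tissue, are fitted values and not bounds.

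Other developmental factors were lower in brown. Nkx2-3, a factor of gut and spleen mesenchyme, was at -4.44 to -3.25 on brown and 1.59 to 2.36 on white arrays. It differed by -5.76 ± 0.47 (adjusted p = 0.000943) and was called in all 5 fits. Wt1, of mesothelium and visceral fat precursors, was not well above background in brown and was at least 81.8-fold higher in white. Tcf21, of visceral mesoderm, differed by -6.13 ± 0.89 and Gata6 by -1.74 ± 0.23, and each, like Wt1, was called in 3 of the 5 fits. For Gata6 the 3 kept probes ranged from -1.74 to -0.12. Foxc2, a mesodermal factor that has been studied in adipocytes, was also lower (-2.85 ± 0.30, adjusted p = 0.00276), in all 5 fits.

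Hox genes, which record position along the body axis, gave 1 call among 24 tested of 39 named, where 5.43% of all genes were called. Hoxb6 was lower in brown (-2.13 ± 0.44, adjusted p = 0.0392), with 0.09 to 0.70 on brown and 2.22 to 2.82 on white arrays, and was not called when any 1 sample was left out. Hoxc9 and Hoxc8, picked out after their values were seen, split the white samples. Hoxc9 was at 2.10 and 2.09 on white arrays 1 and 4 and at -2.21 and -2.34 on white arrays 2 and 3. Hoxc8 was at -1.78 and -1.73 on white arrays 1 and 4 and at -4.50 and -4.46 on arrays 2 and 3. On the brown side Hoxc9 was at -1.80 and -1.71 on arrays 2 and 3 and at -3.46 and -3.79 on arrays 1 and 4. The median over all 24 Hox genes stayed between -0.14 and 0.11 on the white arrays, so the split was not one of the whole list.

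Mesothelial genes, of the lining that covers abdominal fat, were mostly lower in brown. In mean, 14 of 19 tested members were lower and 5 higher, where 8388 of all 15070 genes were lower. Of the 19 members 9 were called lower, as were 1.23% of all genes, and none higher, with a median of -4.17. Without brown arrays 2 and 3, 3 were called, and 1 to 4 over the 5 fits, while the median stayed between -4.42 and -4.02. Aldh1a2, which makes retinoic acid, was at -2.57 to -1.78 on brown and 2.25 to 2.38 on white arrays (-4.52 ± 0.29, adjusted p = 0.000374), and was called in all 5. Msln (-5.61 ± 1.06), Nkain4 (-5.82 ± 1.03) and Gpm6a (-4.27 ± 0.79), membrane protein genes of mesothelium, were called with all samples but in none of the 5. Slpi, a secreted protease inhibitor gene, was at -0.46 to 1.18 on brown and 4.56 to 4.89 on white arrays (-4.17 ± 0.62). Among the 12 members of the list well above background on all 8 control arrays, 5 were called, with a median of -3.94.

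Keratin genes of the same list did not follow, and they were not alone. Of its 19 members, 5 had higher means in brown, and the highest difference, 5.33, was that of a gene other than the keratins below. Krt8 had levels of 3.91, 5.12, 5.06 and 2.45 on brown arrays 1 to 4 and of 0.02 to 1.70 on the white arrays. Its difference of 2.97 ± 1.20 did not pass (adjusted p = 0.195), and neither did Krt18 (3.39 ± 1.17) or Krt19 (0.99 ± 1.28). These keratins are shared by many simple epithelia.

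Some genes best known from epithelium were among the largest bounds, by which they were chosen. Itgb6, an integrin gene of epithelial cells, was at -0.27 to 0.76 on brown arrays and not well above background on any white array, so it was at least 70.1-fold higher. Elf5, a factor of mammary and other glandular epithelium, was at least 47.1-fold higher and Serpinb5, an epithelial serpin gene, at least 46.7-fold. Krt5 and Krt14, the keratin pair of basal epithelial cells, were looked up after these values were seen. Krt5 was at 0.71 to 1.85 on brown and -4.85 to -4.37 on white arrays (5.92 ± 0.48, adjusted p = 0.000885), and Krt14 differed by 3.22 ± 0.36 (adjusted p = 0.00384). Itgb6, Serpinb5 and Krt5 were called in all 5 fits that left out 1 sample. The source of these transcripts, in male mice, was not tested.

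Vessel and macrophage markers had lower means in brown. Over all genes, 44.3% had higher means and 1.23% were called lower. Endothelial genes had a median difference of -0.69, every one of the 23 tested was lower in mean, and the 5 called were Pecam1 (-1.05 ± 0.21), Plvap (-1.67 ± 0.25) and Cldn5 (-1.06 ± 0.21) of blood vessels and Lyve1 (-2.30 ± 0.44) and Flt4 (-1.59 ± 0.31) of lymphatic vessels. None of the 5 stayed called without brown arrays 2 and 3, and at most 1 when another sample was left out. Mmrn1, a gene of lymphatic endothelium outside the list, was steadier, at -2.93 to -2.78 on brown and 0.28 to 0.42 on white arrays (-3.26 ± 0.35, adjusted p = 0.00280), in all 5 fits. Macrophage genes were lower in mean in 33 of 33 members (median -1.12), and 2 were called, the lipid-associated receptor gene Trem2 (-2.34 ± 0.50) and the clearance receptor gene Mertk (-1.05 ± 0.19). Neither stayed called when any 1 sample was left out.

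Lymphocyte genes could not be read as a tissue difference. Their median over 30 tested members was -2.03, with 28 lower in mean, 0 called by limma and 3 at an unadjusted p below 0.05. Of all 15070 genes, 8388 were lower in mean, 5.43% were called and 3504 had an unadjusted p below 0.05. The white samples stood far apart, at -0.92 on arrays 1 and 4 and at 0.97 and 0.92 on arrays 2 and 3, and the brown arrays ran from -3.19 to -1.18. The median moved between -3.02 and -0.97 when any 1 sample was left out. Of 12 tested granulocyte and mast cell genes, 8 had higher and 4 lower means in brown, and 1 was called higher. Over all genes, 44.3% had higher means and 4.21% were called higher. The called gene was Fcer1a, a chain of the high-affinity IgE receptor (2.09 ± 0.27, adjusted p = 0.00723), called in 3 of the 5 fits. It was at -2.21 to -0.41 on brown and -3.60 to -3.47 on white arrays.

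Complement genes, made in part by adipocytes and fibroblasts, had 17 of 20 members lower in mean (median -1.07). The whole set had 8388 of 15070 genes lower in mean and 1.23% called lower. C3 (-1.46 ± 0.28), the central component, and Serping1 (-1.24 ± 0.27), an inhibitor of the cascade, were among the 3 called lower. Masp1, a protease gene of the lectin pathway, was called higher (3.68 ± 0.71). None of C3, Serping1 and Masp1 stayed called without brown arrays 2 and 3, and no complement gene was called without brown array 1 or without either white sample.

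Matrix and secreted factors differed gene by gene. Cxcl14, a chemokine gene, was at 2.45 to 3.65 on brown and -0.82 to -0.27 on white arrays (3.39 ± 0.39, adjusted p = 0.00420), and was called in 4 of the 5 fits. Mmp3, a matrix protease gene, was higher (1.94 ± 0.26) and Col14a1, a fibril-associated collagen gene, lower (-1.96 ± 0.31). Bmp5 was higher (2.07 ± 0.35) and Gdf10, another ligand of that family, lower (-2.51 ± 0.46). Bmp5 was well above background on only 1 white array. Without brown arrays 2 and 3, Col14a1, Bmp5 and Gdf10 were not called (adjusted p = 0.0662, 0.0869 and 0.0968). Col14a1 and Bmp5 were each called in 1 of the 5 fits and Gdf10 in none. The median of the collagen and matrix list, over 39 members, was -0.46, with 31 lower in mean, as were 8388 of all 15070 genes.

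Outside all muscle lists, 702 genes were called, 517 higher and 185 lower. The largest rises among genes detected on all 8 arrays still included many that muscle is known to express. Ddit4l, a stress-responsive inhibitor of mTOR signalling, was at 4.21 to 4.97 on brown and -4.72 to -3.77 on white arrays (8.78 ± 0.55, adjusted p = 0.000320). Perm1, a regulator of muscle mitochondria, differed by 8.05 ± 0.75 and Hjv, the hemojuvelin gene of liver and muscle, by 8.41 ± 0.57. Serinc2 (6.95 ± 0.55), Rragd (6.75 ± 0.57), a GTPase gene of nutrient sensing, and the Wnt receptor gene Fzd9 (7.16 ± 0.76) were also among them, and all 6 were called in all 5 fits that left out 1 sample. Lists do not hold every muscle gene, so absence from them does not make a gene one of fat.

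Among the largest falls outside the factors and mesothelial genes was Fabp7, a fatty acid binding protein gene best known from glia, at -5.02 to -4.20 on brown and -1.25 to -0.80 on white arrays. It differed by -3.63 ± 0.42 (adjusted p = 0.00420), in 4 of the 5 fits. Ptgis, the prostacyclin synthase gene, differed by -3.50 ± 0.65 and Ackr4, a scavenging chemokine receptor gene, by -3.05 ± 0.48. Vit (-3.12 ± 0.64) and Cytl1 (-3.12 ± 0.65), secreted protein genes, were lower as well. Gabra4, a GABA receptor subunit gene, was not well above background in brown and was at least 8.43-fold higher in white. Of these, Ptgis, Vit and Cytl1 were not called in any of the 5 fits, and Ackr4 was not called without brown arrays 2 and 3 (adjusted p = 0.0573).

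The same contrast in the knockout mice, whose arrays share no sample with the controls, had the same direction for most called genes. It compares 2 with 2 samples, and white knockout array 1 stood far from arrays 2 to 4, at 4.22 to 4.26 times the scanner error, with 2780 to 2810 probes over 2-fold apart. Of the 819 genes called in controls, 810 had the same sign in knockouts, as had 11386 of all 15070 genes. Limma called 242 genes there (1.61%), of which 221 were also called in controls in the same direction. The median of the genes higher in control brown fat was 3.56 in controls and 2.49 in knockouts, and that of the genes lower was -1.60 and -1.15. No gene's tissue difference itself differed between the genotypes by limma (0 called, 0%), and 395 genes had an unadjusted p below 0.05 for it.

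Ucp1 was at 5.63 to 5.85 on the brown knockout arrays, so its tissue difference in knockouts was 7.47, though not called (adjusted p = 0.25). Tbx15, Nkx2-3 (-6.27), Cox7a1 (5.44) and Aldh1a2 (-4.33) were called in the knockouts too. Mogat2 (-2.33), Adra1b (-2.09) and Foxc2 (-2.55) were likewise called. Rragd, steady in controls (6.75), was not called in knockouts (2.98, adjusted p = 0.0793). Its difference between genotypes, -3.78 ± 0.85, did not pass (adjusted p = 1.0).

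**Figure D5:**
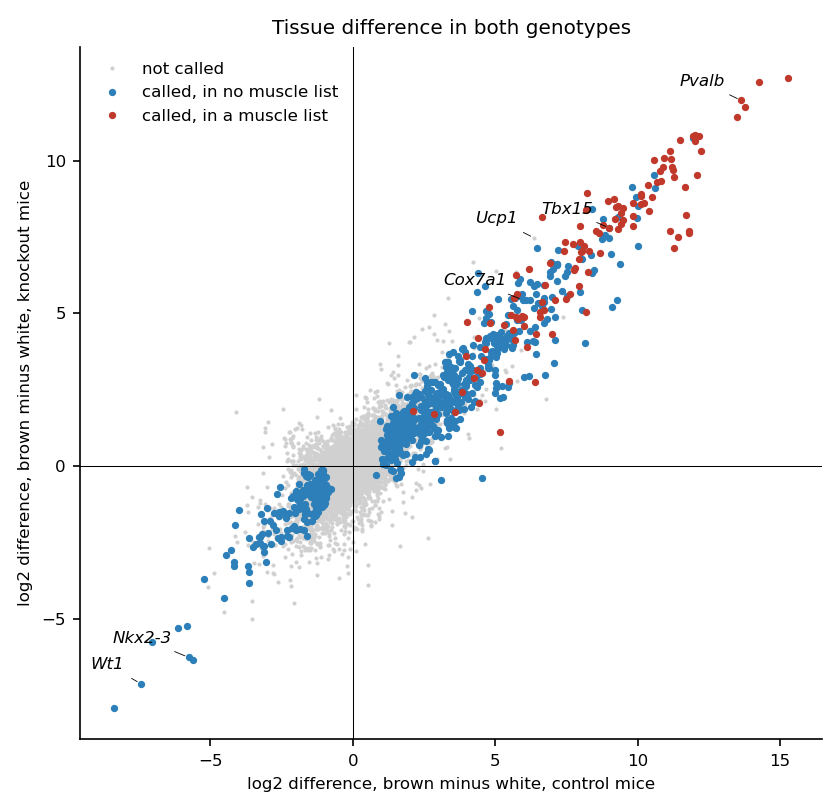
Log2 difference, brown minus white, of each of 15070 genes in control mice (horizontal) and knockout mice (vertical); grey points were not called in controls, blue points were called and stand in no muscle list, and red points were called and stand in a muscle list. Of the 819 called genes, 810 have the same sign on both axes, as have 11386 of all 15070 genes. Ucp1 is grey, at 6.37 and 7.47.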

How the data were processed

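Cy3-labelled cRNA was made from total RNA, per the labels' protocols, and read on 1-colour Agilent arrays. The deposited spot intensity, from Agilent Feature Extraction 12.0.0.7 per the file headers, was linear and background-subtracted within each array. Spots marked as outliers were left out, spots of a probe averaged, and log2 of the authors' deposited intensity taken minus each array's 75th percentile. RefSeq accessions named 28223 of 41174 probes (19096 symbols). Probes well above background on all 4 arrays of either control group were kept, and the brightest stood for its gene.

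Arrays of a group whose median difference was under 1 times the scanner error over 9836 bright probes were averaged. Limma 3.58.1 (R 4.3.3) fitted a mean for each of 4 groups (5 residual degrees of freedom), two-sided, with Benjamini-Hochberg adjustment over all genes and a threshold of 0.05, after the code was tested on simulated data. A bound compared the bright group with the dim one at its own signal or the array's lowest signal well above background, whichever was higher. Label numbers did not pair the samples: deviations of same-numbered brown and white control arrays correlated at -0.16, 0.026, 0.029 and 0.16.

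The members and gene lists were chosen with earlier results of these data known. Named genes were fixed markers, isoform pairs, up to 6 called members of a list, all called Hox and developmental factors, and, outside muscle lists, the 15 largest differences and 10 largest bounds each way. Of these only some are described, and some items are not reported here. Elovl3, Slc27a2, Hoxc8, Hoxc9, Krt5, Krt8, Krt14, Krt18, Krt19, Myh1, Myh4, Myh7, Pvalb, Acta1, Tnnt1, Tnni1 and Tnnc1 fall outside this rule and were added after their values were seen. The normexp alternative used median spot signals, with an offset of 50.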

Additional observations from a re-analysis of the deposited data

Results flagged for a closer look

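Among 390 groups of 4 control arrays examined, 12 held an array whose gap to its nearest neighbour, as a share of the group's range, was above Dixon's critical value. Chance marks about 1 group in 20, and averaged arrays are not independent.

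Brown array 4 stood apart for Cox8b (ratio 0.854, at 7.91 against 7.09 to 7.21), Ldhb (0.961), Slpi (0.865) and Trem2 (0.849). It also stood apart for the medians of the citric acid cycle list (0.888) and the fatty acid oxidation list (0.943), where it was highest. Brown array 1 stood apart for Atp5a1 (0.891), Pde4d (0.934), Gpm6a (0.921) and Serpinb5 (0.919). Brown array 2 stood apart for Ppargc1a (0.917, at 1.53 against 1.16 to 1.19). White array 2 stood apart for Pitx1 (0.867, at -5.36 against -8.43 to -8.02).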

How the results depend on the processing

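The count of 819 genes called in controls depended most on what was taken as a sample. Counting the 16 arrays separately gave 6082 genes in controls, 3972 in knockouts and 672 for the difference between genotypes, and 1674 unnamed probes. Fitting control samples alone gave 2521, and the 8 control arrays separately 7819. Slide as a random block on separate arrays gave 6157. With a replicate block, 1620 genes were called on averaged control samples and 7499 on separate arrays, although the numbers do not pair the samples. Requiring signal above background on all 8 control arrays gave 508. Left out in turn, single arrays gave 342 to 819, white arrays 1 and 4 gave 189, white arrays 2 and 3 gave 178, and brown arrays 2 and 3 gave 324. In alternatives chosen after seeing the data, another rule for bright probes gave 179, controls alone without brown array 4 gave 3041, and controls alone without brown arrays 2 and 3 gave 1162. The causes were not tested.

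Scaling changed the balance of calls. The authors' value table, with no scaling, gave 1023 calls of which 49.1% were higher in brown, against 77.4%, and a median over all genes of -0.44. Normexp gave 566 calls, 85.2% of them higher, with a median of 0.05. Of 3505 values of called genes across alternatives, 3504 kept their direction. The exception was Acta2, at -0.17 with the mean of its probes. The precision is limited by 3 brown and 2 white samples.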
